A study of Oryza sativa with 4 samples.

Results

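Accessible regions annotated to rice introns other than intron 1 were examined in leaf blades of Oshmgb1 mutants and of wild type (WT). These later intron peaks are the rows of the deposited ATAC-seq peak table that the authors annotated to an intron and not to intron 1 of the gene model. They number 5205 of the 46114 listed peaks (11.3%) and 62.6% of the 8315 intron peaks, and they are assigned to 4173 genes. The annotation gives each peak a single class, so a peak can also reach beyond its intron, and 4902 of the 5205 lie wholly within their host gene. ATAC-seq uses the Tn5 transposase to cut and tag open DNA, so that the reads of a region measure its accessibility. Leaf blades came from seedlings of Oryza sativa grown for 28 days in HP, a condition named but not spelled out in the labels, and both genotypes shared it. There were 2 Oshmgb1 libraries and 2 WT libraries. The sources used here do not give the kind of mutation, the number of mutant lines or the number of plants per library, so p-values measure the spread between libraries, which may be technical.

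Introns are removed from the transcript by splicing, but their DNA can carry regulatory elements, alternative start sites and transposon insertions. In plants, elements in introns close to the gene start are the best known for raising expression. OsHMGB1 belongs to the high mobility group box proteins, which bind and bend DNA and lie in chromatin beside the histones. The comparison addresses where chromatin inside later introns was more or less open in the mutants.

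Reads in all listed peaks numbered 10400677 and 8516630 in Oshmgb1 replicates 1 and 2, and 7228483 and 8183354 in WT replicates 1 and 2. A later intron peak had a median of 144 and 113 reads in the Oshmgb1 libraries and of 91 and 111 in the WT libraries. WT replicate 1 was thus the shallowest library. Across later intron peaks the log2 CPM correlated at r = 0.950 between the Oshmgb1 libraries, 0.938 between the WT libraries and 0.913 to 0.934 between genotypes. To describe the tissue, 14 promoter and 5′ UTR peaks of 13 genes described as Rubisco small chain or chlorophyll a-b binding proteins were looked at. Their median accessibility was 49.8 and 51.1 CPM (read counts scaled to the library's total in listed peaks) in Oshmgb1 and 54.5 and 56.1 CPM in WT, so these genes were open in all 4 libraries. Leaf blades hold several cell types, and a change in the share of a cell type cannot be told apart from a change in accessibility per cell.

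Most later intron peaks lay far from the gene start and were typical in size. Their median distance to the start was 2755 bp and their median width was 543 bp (205 to 4343 bp), against 560 bp over all listed peaks. Intron 2 held 1606 of them (30.9%), intron 3 held 871, introns 4 and 5 held 1049, introns 6 to 9 held 1001 and introns from number 10 on held 678. The highest intron number was 49. The last intron of the gene model held 1583 peaks (30.4%). By place along the gene, 8.49% had their centre in the part nearest the start (0 to 20% of the gene length) and 27.9% in the part between 60 and 80%, with a median place of 59.1%.

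**Figure D1:**
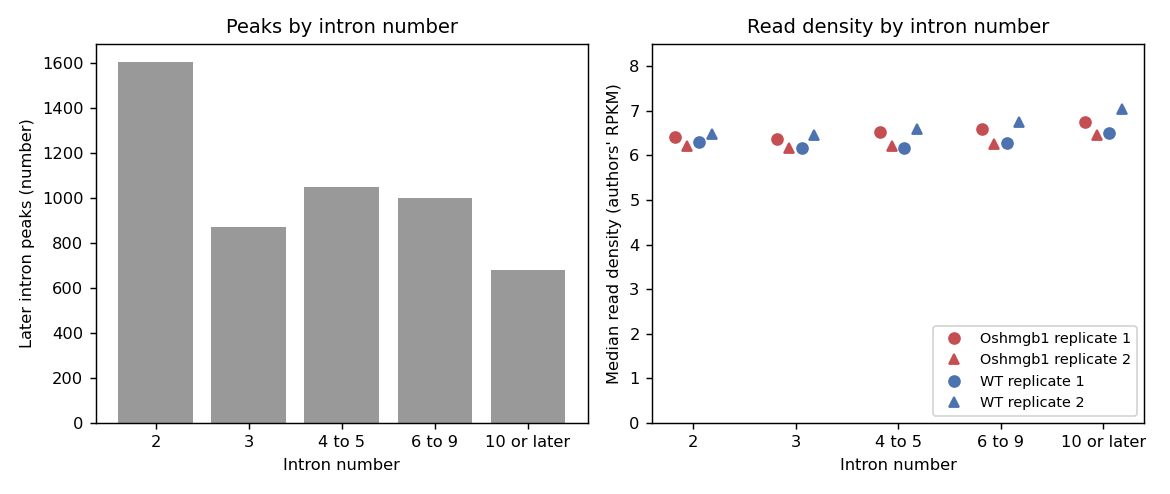
Number of later intron peaks by intron number (left, bars) and median read density per library in the authors' RPKM (right, circles for replicate 1 and triangles for replicate 2, Oshmgb1 left of WT in each group). Intron 2 held 1606 peaks, and the library medians lay between 6.16 and 7.05 RPKM in every group.

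A gene usually had a single later intron peak, and for 24.4% of host genes the table listed no peak of any other class. A single later intron peak was listed at 3388 genes (81.2%), 2 at 614 genes and 3 or more at 171 genes. A promoter or 5′ UTR peak was listed for 2104 of the 4173 genes (50.4%). At these 2104 genes the strongest later intron peak had a lower read density than the strongest promoter or 5′ UTR peak in all 4 libraries at 1022 genes (48.6%), and a higher one in all 4 at 188 genes (8.94%). The log2 fold changes of the paired peaks correlated at r = 0.06 (Spearman 0.02) across 2104 genes. These genes share the same 4 libraries and are not independent replicates. The median SE of a log2 fold change was 0.208 over later intron peaks and 0.195 over promoter peaks. The quartiles of the later intron log2 fold changes were -0.15 and 0.20. With errors of this size a low correlation cannot show that the paired peaks change separately.

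Read density, which is per length and given by the authors as RPKM, had a median of 6.51 and 6.24 over later intron peaks in Oshmgb1 and of 6.28 and 6.63 in WT. Over all listed peaks the medians were 6.84 and 6.71 in Oshmgb1 and 6.94 and 6.98 in WT, and over promoter peaks 7.57 and 7.58 in Oshmgb1 and 8.14 and 7.79 in WT. Intron 1 peaks had 6.46 and 6.31 in Oshmgb1 and 6.42 and 6.49 in WT. The differences between classes were not tested. Narrow peaks were somewhat denser than wide ones. In the 1303 later intron peaks of up to 393 bp the median was 7.03 and 6.80 RPKM in Oshmgb1 and 6.72 and 7.06 RPKM in WT, and in the 1301 of 797 bp or more it was 6.21 and 5.92 RPKM in Oshmgb1 and 6.09 and 6.38 RPKM in WT.

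The strongest signals were mostly at host genes described as mitochondrial. The 5 peaks of highest mean accessibility were 3 in NAD7 (LOC_Os12g33958) and 1 in ND4 (LOC_Os12g34094), both described as NADH dehydrogenase subunits of the mitochondrion, and 1 in RPL5 (LOC_Os09g08890), described as ribosomal protein L5. The NADH dehydrogenase is the first complex of the respiratory chain. The NAD7 peak in intron 4 at chromosome 12, 20508159 to 20509234, had 466 and 466 RPKM in Oshmgb1 and 532 and 479 RPKM in WT. The ND4 peak (chromosome 12, 20621443 to 20622281) had 247 and 238 RPKM in Oshmgb1 and 277 and 261 RPKM in WT. Nuclear chromosomes of rice carry copies of organelle DNA, and the part of reads from mitochondria themselves in these counts was not tested. The 5 peaks took 6.94% and 7.15% of later intron reads in Oshmgb1 and 7.94% and 7.09% in WT. Their log2 fold changes ran from -0.11 to -0.07 and none was called (edgeR quasi-likelihood test, lowest adjusted p 0.595). Without WT replicate 2, which leaves the higher WT library alone, the adjusted p of these 5 fell to between 3.77e-11 (NAD7, intron 4, log2 fold change -0.14) and 0.00294 (ND4, -0.14).

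Later introns as a class took nearly the same share of accessible reads in both genotypes. The share of reads in listed peaks was 9.84% and 9.56% in Oshmgb1 and 9.29% and 9.77% in WT, with means of 9.70% ± 0.200 and 9.53% ± 0.335 (SD, n = 2 each). The libraries of the genotypes overlapped. The difference of 0.169 percentage points gave p = 0.667 in an exact two-sided permutation test, which cannot go below 0.333 with these libraries. Without WT replicate 1 the difference turned to -0.0682 percentage points.

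Few later intron peaks differed between Oshmgb1 and WT. In edgeR's quasi-likelihood test fitted to all listed peaks, with Benjamini-Hochberg adjustment at 0.05, 16 were higher and 3 lower in Oshmgb1. These 19 are 0.365% of later intron peaks, against 0.403% of all listed peaks. The higher peaks were 0.307% of later intron peaks against 0.321% of all, and the lower peaks 0.0576% against 0.0824%, so the shares lay near the background. The called peaks lay in 18 genes, and 11 of them changed at least 2-fold. Among the 16 higher peaks the median log2 fold change was 1.04, and among the 3 lower peaks it was -0.98. Over all 5205 later intron peaks the median was 0.02 (lower to upper quartile -0.15 to 0.20), against -0.01 over all listed peaks (-0.16 to 0.17), and 94.3% had a 95% interval that excluded a 2-fold difference (95.2% of all listed peaks).

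At an unadjusted p under 0.05 there were 656 later intron peaks (12.6%, against 12.2% of all listed peaks), 425 higher and 231 lower in Oshmgb1. Over all listed peaks 3201 were higher and 2405 lower. Intron 1 peaks (249 higher, 144 lower) and exon peaks (824 higher, 454 lower) leaned the same way, so the lean was not particular to later introns. Both Oshmgb1 libraries lay above both WT libraries in 23.9% of later intron peaks and below both in 19.6%, against 21.6% and 21.6% of all listed peaks. Scaling moved this balance: with the library totals behind the authors' RPKM the median log2 fold change of later intron peaks was -0.03, and the calls were 14 higher and 9 lower. With an offset that depends on mean accessibility they were 8 higher and 7 lower. DESeq2 called 3 later intron peaks higher and 0 lower (0.0976% of all listed peaks were called), and in the authors' deposited table the same 3 were higher and 0 lower at an FDR under 0.05 (0.102% of all). With a library left out, the count of higher peaks fell without either Oshmgb1 library and rose without WT replicate 2. The count of lower peaks fell without either Oshmgb1 library and rose without either WT library. The share of all listed peaks called is not given for these fits or for the other scalings, so their counts have no background beside them.

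**Figure D2:**
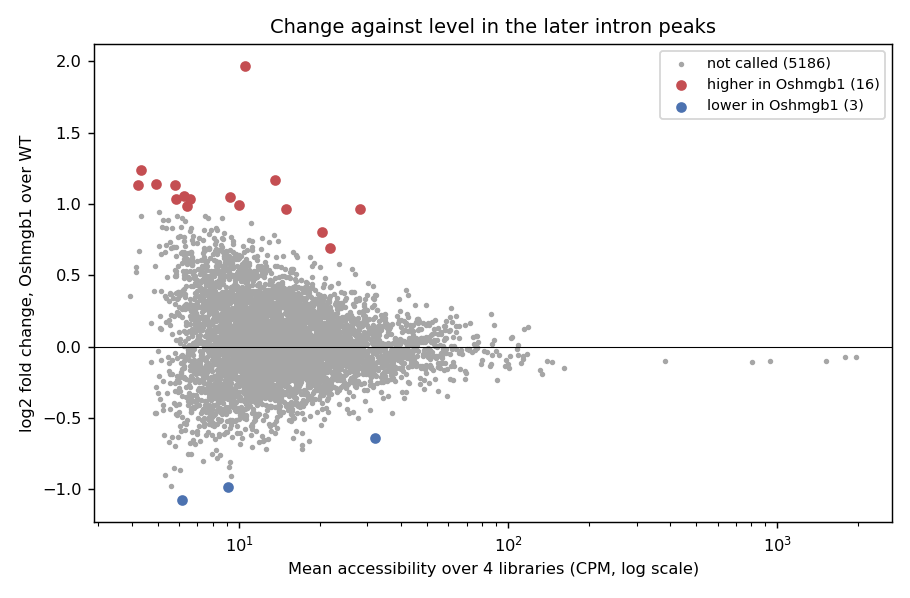
Log2 fold change of Oshmgb1 over WT (y axis) against mean accessibility over the 4 libraries (x axis, CPM, log scale) for each of the 5205 later intron peaks. The 16 higher and 3 lower peaks are coloured, and the spread of the fold changes widens toward low accessibility, where 13 of the 19 lie below the median of 13.3 CPM.

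The largest change was in a host gene with the symbol of a retroelement polyprotein. The peak in intron 4 of 5 of LOC_Os05g24610 (symbol pol, chromosome 5, 14204110 to 14204640, 6024 bp from the gene start) measured 14.6 and 19.0 CPM in Oshmgb1 and 5.33 and 3.30 CPM in WT. Both mutant libraries lay well above both WT libraries. The log2 fold change was 1.97 ± 0.25 (SE), a 3.91-fold increase, with an edgeR adjusted p of 8.20e-09. The promoter peak of the same gene had 11.9 and 10.1 CPM in Oshmgb1 and 12.3 and 12.7 CPM in WT, a log2 fold change of -0.18 ± 0.21 (adjusted p 0.784). A test of the intron peak's change against that of all listed peaks of its gene together (edgeR's diffSpliceDGE) gave an adjusted p of 0.00692.

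WAV3 (LOC_Os11g45390), described as a von Willebrand factor type A domain protein, was the only gene with more than 1 called later intron peak. In Arabidopsis the WAV3 family holds E3 ubiquitin ligases of root growth direction. The peak in its intron 4 of 4 (chromosome 11, 27471109 to 27472109) measured 36.1 and 38.7 CPM in Oshmgb1 and 17.4 and 20.8 CPM in WT. The peak in its intron 2 (27473529 to 27473929) measured 12.2 and 14.5 CPM in Oshmgb1 and 6.87 and 6.48 CPM in WT. The genotypes did not overlap at either peak. The log2 fold changes were 0.96 ± 0.15 (SE, adjusted p 1.65e-05) and 0.99 ± 0.23 (adjusted p 0.0169). The peaks downstream of the gene also rose, by 1.53 ± 0.18 (adjusted p 1.25e-09) at 27464876 to 27465592 and by 0.86 ± 0.13 (adjusted p 5.43e-06) at 27466394 to 27467942. All 4 listed peaks of the gene were thus higher in Oshmgb1. The change in the introns was not distinguished from that of the gene's 4 peaks together. The diffSpliceDGE log2 differences were -0.07 in intron 4 and -0.04 in intron 2, neither called. The intron 2 peak was not called by DESeq2 (adjusted p 0.761) or in the authors' deposited table (FDR 0.647). The call in intron 2 was lost without Oshmgb1 replicate 2 (adjusted p 0.330) or WT replicate 2 (0.0511).

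LOC_Os09g20190, which has no symbol and only a locus name as its description, behaved in the same way. Its peak in intron 2 of 3 (chromosome 9, 12101699 to 12102345) measured 17.7 and 19.8 CPM in Oshmgb1 and 9.68 and 7.09 CPM in WT, which is a log2 fold change of 1.17 ± 0.21 (SE, adjusted p 3.50e-04). A promoter peak of the gene measured 40.9 and 39.6 CPM in Oshmgb1 and 17.8 and 16.3 CPM in WT (log2 fold change 1.24 ± 0.15, adjusted p 5.78e-09). A second promoter peak had 0.77 ± 0.22 and did not pass (adjusted p 0.0972). The LOC_Os05g24610 peak, the WAV3 peak in intron 4 and this peak were the 3 later intron peaks called under every alternative set out for the analysis, those with each library left out included.

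U2AF65A and PUM2 held higher peaks of moderate signal. U2AF65A (LOC_Os11g41820) encodes the large subunit of the splicing factor U2AF, which recognises the 3′ splice site. Its peak in intron 2 of 9 (chromosome 11, 25152005 to 25152832) measured 25.5 and 28.6 CPM in Oshmgb1 and 15.4 and 18.0 CPM in WT (log2 fold change 0.69 ± 0.17 SE, adjusted p 0.0361). A further peak in intron 8 of the gene had a log2 fold change of 0.01 ± 0.16 and its promoter peak -0.21 ± 0.15, neither called. LOC_Os04g20774 has the symbol PUM2, which names an RNA-binding Pumilio protein. Its peak in intron 2 of 4 (chromosome 4, 11651868 to 11653165) measured 25.5 and 26.2 CPM in Oshmgb1 and 14.3 and 15.3 CPM in WT (0.80 ± 0.18, adjusted p 0.00946). With 1 library left out, both calls were kept only without WT replicate 2 (adjusted p 0.0266 for U2AF65A and 0.0205 for PUM2). The U2AF65A call was also lost with the library totals behind the RPKM (0.0545). Neither peak was called by DESeq2 (adjusted p 0.763 for U2AF65A and 0.187 for PUM2) or in the authors' deposited table (FDR 0.735 and 0.302).

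DOX1 (LOC_Os12g26290) is described as alpha-dioxygenase 1, an enzyme that oxidises fatty acids to oxylipins. Its peak in intron 4 of 10 (chromosome 12, 15334031 to 15334547) measured 18.6 and 20.8 CPM in Oshmgb1 and 10.7 and 9.53 CPM in WT. The genotypes were well apart. The log2 fold change was 0.96 ± 0.20 (SE) at an adjusted p of 0.00430, and the peak passed with any library left out except Oshmgb1 replicate 2 (0.172). The peak in intron 1 of the gene was stronger, at 36.9 and 37.1 CPM in Oshmgb1 and 39.3 and 35.7 CPM in WT. Its log2 fold change was -0.02 ± 0.13. The intron 4 peak was not called by DESeq2 (adjusted p 0.144) or in the authors' deposited table (FDR 0.209).

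**Figure D3:**
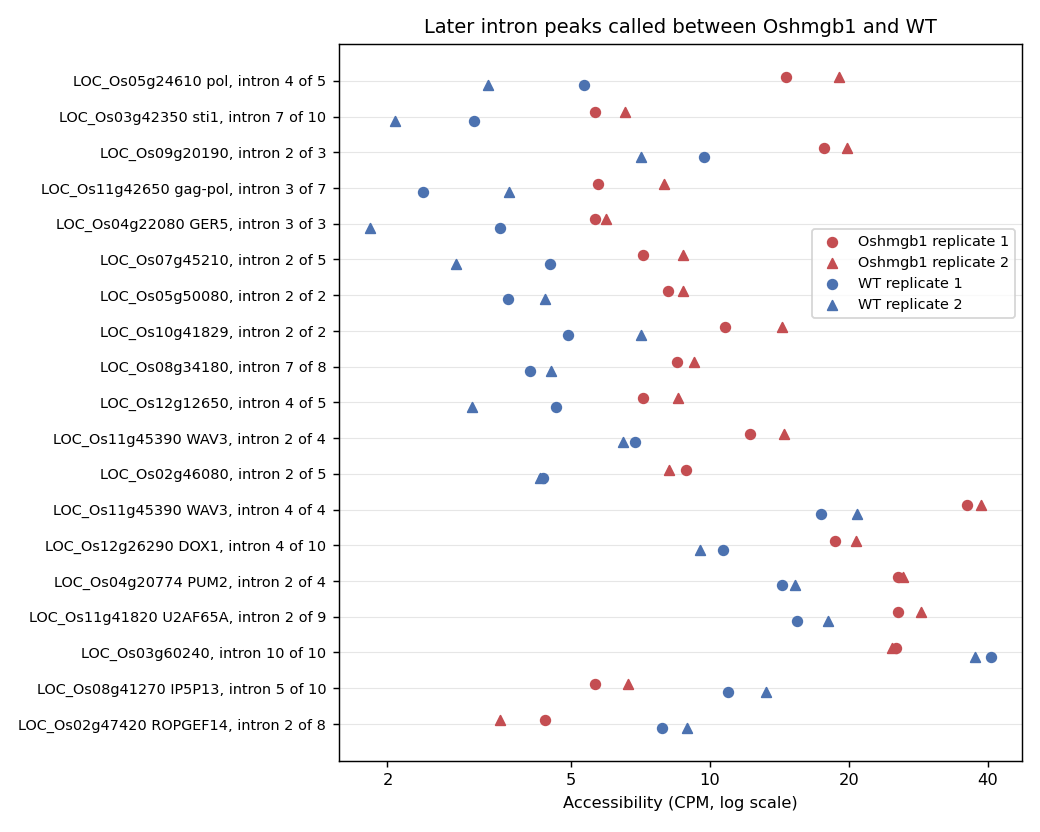
Accessibility in CPM (log scale) of the 19 called later intron peaks in each library, with Oshmgb1 in red above WT in blue and circles and triangles for replicates 1 and 2. At each of the 19 peaks both libraries of a genotype lie on the same side of both libraries of the other. The peaks were called on these same libraries, so their separation is no further evidence. Over all listed peaks both Oshmgb1 libraries lay above both WT libraries in 21.6% and below both in 21.6%.

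The remaining 9 higher peaks were weak, with 5.63 to 14.3 CPM in Oshmgb1 libraries and 1.83 to 7.09 CPM in WT libraries. The co-chaperone gene sti1 (LOC_Os03g42350), whose product hands client proteins between Hsp70 and Hsp90, had 5.63 and 6.53 CPM in Oshmgb1 and 3.09 and 2.08 CPM in WT at intron 7 of 10 (log2 fold change 1.24 ± 0.28 SE, adjusted p 0.0127). A peak in LOC_Os02g46080, described as a probable protein phosphatase 2C, had 8.88 and 8.16 CPM in Oshmgb1 and 4.35 and 4.28 CPM in WT (0.98 ± 0.25, adjusted p 0.0435), and lost its call with each of the 4 libraries left out and with the replicate number as a block (0.0503). An F-box gene (LOC_Os10g41829) had 10.8 and 14.3 CPM in Oshmgb1 and 4.91 and 7.09 CPM in WT (1.05 ± 0.24, adjusted p 0.0152). F-box proteins choose the targets of a class of ubiquitin ligases. The others were a CCCH zinc finger gene (LOC_Os05g50080), a gene with the symbol GER5 (LOC_Os04g22080), a gene with the retroelement symbol gag-pol (LOC_Os11g42650), and LOC_Os07g45210, LOC_Os08g34180 and LOC_Os12g12650, which have no symbol. Their log2 fold changes ran from 1.03 to 1.14 and their adjusted p from 0.0172 to 0.0368. All 9 lost their call without Oshmgb1 replicate 2 (adjusted p 0.184 to 0.423) and in DESeq2, and 8 of them, all but the F-box gene, also lost it with the offset that depends on mean accessibility.

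The 3 lower peaks lay in a SCAR-like gene, IP5P13 and ROPGEF14. LOC_Os03g60240 is described as SCAR-like protein 1, a family known in Arabidopsis for activating the complex that branches actin filaments. In intron 10 of 10, its peak (chromosome 3, 34266096 to 34266849) measured 25.3 and 24.7 CPM in Oshmgb1 and 40.7 and 37.5 CPM in WT, so both Oshmgb1 libraries lay below both WT libraries (log2 fold change -0.64 ± 0.14 SE, adjusted p 0.0104). Its promoter peak, at 46.5 and 43.8 CPM in Oshmgb1 and 46.0 and 40.3 CPM in WT, had 0.07 ± 0.12. IP5P13 (LOC_Os08g41270), a type I inositol polyphosphate 5-phosphatase by its description, had 5.63 and 6.65 CPM in Oshmgb1 and 10.9 and 13.2 CPM in WT at intron 5 of 10 (-0.98 ± 0.23, adjusted p 0.0220). ROPGEF14 (LOC_Os02g47420), described as a guanine nucleotide exchange factor, had 4.39 and 3.50 CPM in Oshmgb1 and 7.86 and 8.92 CPM in WT at intron 2 of 8 (-1.08 ± 0.25, adjusted p 0.0169). Each lost its call without either Oshmgb1 library, with adjusted p from 0.0955 to 0.381. Without WT replicate 1 the SCAR-like peak failed (0.0891), and without WT replicate 2 the IP5P13 (0.0928) and ROPGEF14 (0.0754) peaks failed. None of the 3 was called by DESeq2 or in the authors' deposited table, where the FDR of the SCAR-like peak was 0.0736.

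Of the 18 genes with a called later intron peak, 14 had listed peaks of other classes. Of these 19 other peaks 3 were called, at WAV3 and LOC_Os09g20190. Over all listed peaks 0.403% were called, but these genes were chosen for a call at another of their peaks. At genes with several peaks, a later intron peak's change was tested against that of all the gene's listed peaks together. It differed in 2 of the 4342 later intron peaks tested (diffSpliceDGE, adjusted p under 0.05), against 0.0127% of all peaks tested. They were the peak of LOC_Os05g24610 and a peak in intron 2 of 5 of GLTP2 (LOC_Os08g01710). The GLTP2 intron peak itself had 5.73 and 6.30 CPM in Oshmgb1 and 7.01 and 7.09 CPM in WT, and was not called (log2 fold change -0.23 ± 0.24). The peak downstream of that gene had 40.3 and 43.3 CPM in Oshmgb1 and 11.9 and 15.2 CPM in WT. The difference of the intron peak from its gene's peaks together gave a diffSpliceDGE adjusted p of 5.57e-04. For the other called peaks at genes with several peaks the adjusted p of this difference was 0.337 or higher.

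**Figure D4:**
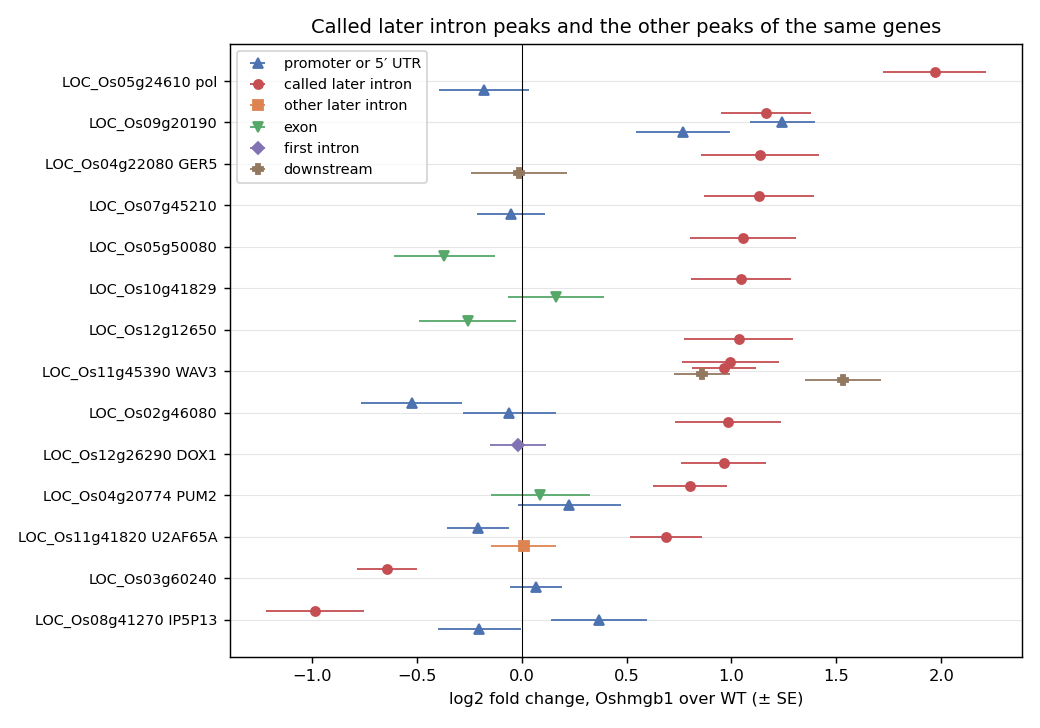
Log2 fold change of Oshmgb1 over WT with its SE (bars) for the called later intron peaks and for the other listed peaks of the same genes, at the 14 genes that have them. At WAV3, LOC_Os09g20190, PUM2 and the F-box gene LOC_Os10g41829 every peak lies to the right of 0. The other peaks of PUM2 have 0.23 and 0.09 and that of the F-box gene 0.16, none called. The promoter peak of LOC_Os05g24610 has -0.18 against 1.97 in the intron.

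Phosphate homeostasis is named in the title of the study, so genes of phosphate signalling and transport were listed. Among these 26 genes, 22 had a listed peak and 5 had a later intron peak, none called. SPX1 (LOC_Os06g40120), an intracellular phosphate sensor that holds back the PHR regulators, had 34.6 and 29.9 CPM in Oshmgb1 and 24.6 and 27.7 CPM in WT in intron 2 of 2 (chromosome 6, 23878493 to 23879241). Both Oshmgb1 libraries lay above both WT libraries, as in 21.6% of all listed peaks. The log2 fold change was 0.30 ± 0.15 (SE), and the edgeR p was 0.0459 before and 0.399 after adjustment. It was the only one of the 5 with an unadjusted p under 0.05, which 12.2% of all listed peaks had. PHR1 (LOC_Os03g21240), a transcription factor of the phosphate starvation response, had 16.9 and 18.9 CPM in Oshmgb1 and 17.3 and 18.2 CPM in WT in intron 6 of 7. The phosphate exporters PHO1-2 (LOC_Os02g56510) and PHO1-3 (LOC_Os06g29790) had log2 fold changes of -0.29 ± 0.25 and -0.19 ± 0.23, and the purple acid phosphatase gene LOC_Os01g56880 had 0.06 ± 0.17. The 95% interval excluded a 2-fold difference at all 5 peaks.

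With 0.403% of all listed peaks called, lists of this size would hold few calls or none, and the counts say little about the lists. Transcription factors had 161 such peaks, kinases 210, membrane transporters 132, disease resistance genes 46, genes of chromatin and DNA repair 83, genes with a chloroplast or photosynthesis description 312, auxin genes 17 and transposon-like genes 14, with 0 called in edgeR in each. At an unadjusted p under 0.05 these lists had 15, 27, 16, 8, 10, 30, 1 and 3 peaks in the same order, which are 9.32%, 12.9%, 12.1%, 17.4%, 12.0%, 9.62%, 5.88% and 21.4% of their peaks, against 12.2% of all listed peaks. Ubiquitin pathway and protease genes had 1 called of 267 (the F-box gene above), and RNA splicing and processing genes had 1 of 99 (U2AF65A). Median log2 fold changes lay between -0.03 and 0.06 in every list except auxin genes (0.14) and transposon-like genes (0.24), against 0.02 over all later intron peaks. Among the 14 transposon-like peaks the log2 fold changes ran from -0.38 to 0.82. The polyprotein symbols pol and gag-pol did not put their genes in the transposon-like list, which goes by the description. No test was made of these lists, and DESeq2 called none of their peaks.

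**Figure D5:**
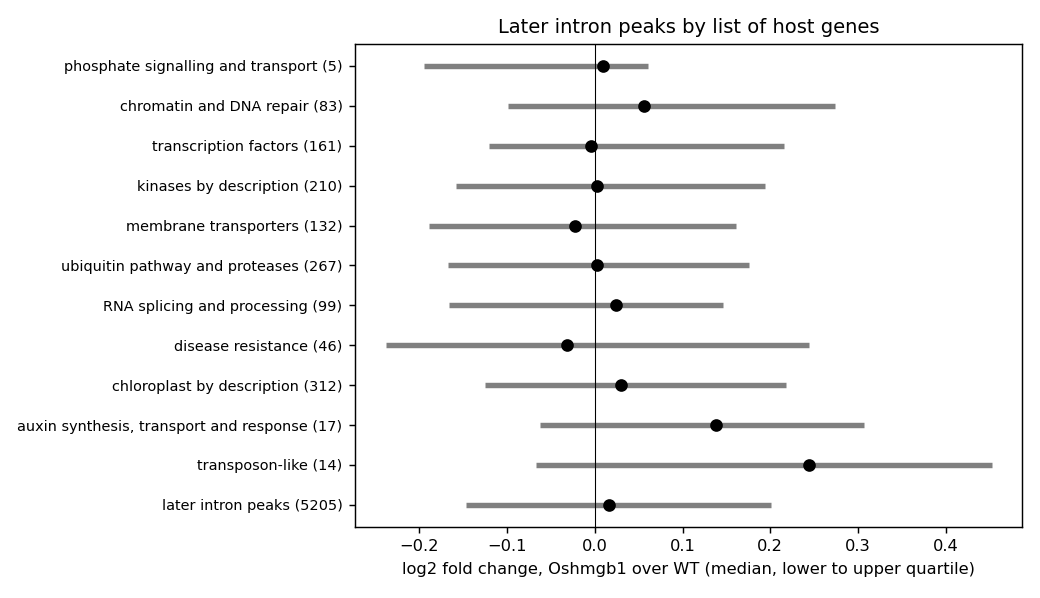
Median (points) and lower to upper quartile (bars) of the log2 fold change of Oshmgb1 over WT for the later intron peaks of each list of host genes, with the number of peaks in brackets. The medians lie near 0 except for auxin genes at 0.14 (17 peaks) and transposon-like genes at 0.24 (14 peaks).

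None of the most accessible later intron peaks of these lists was called, where 0.403% of all listed peaks were. The AP2-like factor TOE3 (listed as AP2, LOC_Os05g03040), of a family that delays flowering in Arabidopsis, had 111 and 120 CPM in Oshmgb1 and 124 and 117 CPM in WT in its last intron. The MYB gene LAF1 (LOC_Os02g42850) had 63.9 and 74.3 CPM in Oshmgb1 and 59.5 and 59.3 CPM in WT (log2 fold change 0.22 ± 0.11 SE). AAP6 (LOC_Os07g04180), an amino acid permease, had 116 and 123 CPM in Oshmgb1 and 102 and 117 CPM in WT, with overlapping libraries. The histone deacetylase gene HDA6 (LOC_Os08g25570), whose product removes acetyl groups from histones, had 35.1 and 36.7 CPM in Oshmgb1 and 43.5 and 45.9 CPM in WT, which do not overlap (-0.32 ± 0.13, edgeR adjusted p 0.273). The resistance gene LOC_Os01g52290 had 25.9 and 26.1 CPM in Oshmgb1 and 37.9 and 33.1 CPM in WT (-0.45 ± 0.15, adjusted p 0.154). The kinase gene SAPK7 (LOC_Os04g35240), of the family that transmits osmotic stress and abscisic acid signals, had 69.7 and 67.6 CPM in Oshmgb1 and 65.4 and 59.0 CPM in WT. The auxin genes IAA25 (LOC_Os08g01780) and ARF22 (LOC_Os10g33940) had log2 fold changes of -0.14 ± 0.13 and -0.06 ± 0.13. The pentatricopeptide gene EMB2279 (LOC_Os01g48380), of a family of organelle RNA-binding proteins, had -0.06 ± 0.10. The widest later intron peak, annotated to the last intron of LOC_Os04g02900 (a chloroplast pyruvate dehydrogenase subunit), is wider at 4343 bp than the gene model of 4061 bp and so is not confined to that intron. It had 109 and 102 CPM in Oshmgb1 and 105 and 96.2 CPM in WT. Across the other 9 peaks looked at in these lists, log2 fold changes ran from -0.25 at the CACTA transposon gene LOC_Os03g26350 to 0.17 at the ubiquitin-conjugating enzyme gene UBC25 (LOC_Os01g12950).

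Some genes held several later intron peaks, and no call was made in the 8 with the most. With 0.403% of all listed peaks called, so few peaks would hold few calls or none. LOC_Os06g26234, with the symbol SBE3 and described as an alpha-glucan-branching enzyme, held 8 in 6 of its 20 introns over a gene of 28781 bp. Their summed accessibility was 154 and 163 CPM in Oshmgb1 and 158 and 164 CPM in WT, and single log2 fold changes ran from -0.33 to 0.25. Another 7 genes held 6 each, among them NPF4.6 (LOC_Os06g38294), of the family of nitrate and peptide transporters, with 177 and 196 CPM in Oshmgb1 and 191 and 179 CPM in WT. The serine carboxypeptidase gene CBP2 (LOC_Os05g18604), 33199 bp long, had 128 and 135 CPM in Oshmgb1 and 112 and 117 CPM in WT. Its 6 peaks had log2 fold changes from 0.04 to 0.29, with the lowest edgeR adjusted p at 0.435, and the smallest turned to -0.01 with the library totals behind the RPKM. At the other 5, LOC_Os01g46169, LOC_Os01g58240, LOC_Os04g20960, LOC_Os06g28194 and LOC_Os07g30150, log2 fold changes ran from -0.43 to 0.52.

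The called peaks lay in several introns and on several chromosomes, with unequal shares. Intron 2 held 9 of the 19, intron 3 held 2, introns 4 and 5 held 5, introns 6 to 9 held 2 and introns from number 10 on held 1. These are 0.56%, 0.23%, 0.477%, 0.20% and 0.147% of the peaks in each group. Chromosome 11, with both WAV3 peaks, held 4 of the 19, which are 1.23% of its 324 later intron peaks. Chromosomes 1 and 6 held 0 of their 699 and 428. At an unadjusted edgeR p under 0.05 chromosome 12 had 57 of its 305 later intron peaks (18.7%), 45 higher and 12 lower in Oshmgb1. On the other numbered chromosomes this share ran from 10.9% (chromosome 1) to 14.0% (chromosome 9). Over all listed peaks 0.403% were called and 12.2% had such an unadjusted p. With counts this small the groups were not tested against each other.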

How the data were processed

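ATAC-seq of rice leaf blades gave 4 libraries, 2 of Oshmgb1 and 2 of WT. Per the submitters' processing notes, the tools were ChIPseeker 1.16.1, MACS2 2.1.2, Bowtie2 2.4.4, fastp 0.23.0 and bcl2fastq 2.19. The sources used here do not give the genome build, and coordinates are those of the table. The authors deposited a table of merged peaks with read counts and RPKM per library, an annotation of each peak, and the FDR, p-value and log2 fold change of their own comparison. From the deposited counts, edgeR 4.0.16 (R 4.3.3) was fitted to all 46114 peaks with TMM scaling and a quasi-likelihood test, with Benjamini-Hochberg adjustment over all peaks. The filter on low counts removed 0 peaks. CPM was scaled to the reads in listed peaks times the TMM factor.

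Later intron peaks were compared with all listed peaks of their gene together by diffSpliceDGE, a test added after the data were seen. DESeq2 1.42.0, other scalings, filters, blocks and each library left out were alternatives. The fit was also run on simulated counts that took their means, depths and spread from the main fit. At an adjusted p under 0.05 it recovered 28% of 50 peaks changed 1.5-fold and 84% of 50 changed 2-fold. It recovered 94% of those changed 3-fold and 100% of those changed 4-fold, with 2 false calls.

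Named peaks were every called later intron peak, the 5 of highest mean CPM, those of the 5 genes with the most (8 with ties), those at phosphate genes, and the 2 of highest mean CPM in each other list. Lists other than the phosphate list go by words in the deposited descriptions. Members and lists were chosen with earlier results of these data known.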

Additional observations from a re-analysis of the deposited data

How the results depend on the processing

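The count of higher later intron peaks, 16, was 8 with the offset that depends on mean accessibility, 3 in DESeq2, 3 as called from the authors' deposited table, and ran from 5 to 48 with 1 library left out. The count of lower peaks, 3, was 9 with the library totals behind the RPKM, 7 with the offset, 0 in DESeq2, 0 from the authors' deposited table, and ran from 0 to 12 with 1 library left out. At an unadjusted p under 0.05, DESeq2 had 190 later intron peaks and 203 were in the authors' deposited table. The median log2 fold change of later intron peaks was -0.0273 with the library totals behind the RPKM and -0.0271 in the authors' deposited table, and ran from -0.0152 to 0.0615 with 1 library left out. The difference in the share of reads ran from -0.0682 percentage points, without WT replicate 1, to 0.406, without WT replicate 2. The cause was not tested. Where 1 library of a genotype remained, it was assumed to vary like the other genotype's pair. Of the 19 called peaks, 3 were called in every alternative set out for the analysis, and 17 remained with the library totals behind the RPKM, 11 with the offset and 19 with DESeq2's size factors. A minimum mean of 5 CPM removed 3 of them and kept the other 16.

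The replicate numbers are not stated to mark shared plants or days. Deviations of same-numbered libraries correlated at -0.113 over the 10000 most accessible peaks and at -0.04 over all peaks. A block for the replicate number gave a fit in which 15 peaks were higher and 4 lower, and 18 of the 19 calls remained. With the numbers crossed between genotypes, an alternative chosen after seeing the data, 18 were higher and 6 lower. The 95% interval excluded a 2-fold difference in 86.8% of later intron peaks up to 393 bp, with a median of 57 to 89 reads per library, and in 99.4% of those from 797 bp, with 180 to 278 reads. The part of depth in this was not tested.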
